A study of Mus musculus with 4 samples.

Results

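Runx3 binding was examined at 9 genes of leukocyte integrin chains, Itgal, Itgam, Itgax, Itgad, Itgae, Itga4, Itgb1, Itgb2 and Itgb7. The members are the Runx3 peaks whose centre lies in the body of one of these genes or within 20 kb of it, and 28 of the 15121 peaks of the deposited list met this rule. The peaks came from ChIP-seq of splenic CD11chiMHCII+CD4+ DC of unmanipulated mice, with no allele or treatment given in the labels. In 2 samples chromatin was precipitated with a homemade polyclonal anti-Runx3 antibody, and in 2 whole cell extract control samples fragmented chromatin was taken without precipitation. The cells were sorted from pools of approximately 15 mice, so no value belongs to a single animal. The strain is given as C57BL/6 for both Runx3 samples and 1 control sample and as C57BL/7 for the other control sample. The authors deposited 1 peak list for the 4 samples together, so a peak has no value per replicate and no spread between replicates can be given. Sequencing depth per sample was not analysed here, and the absence of a peak means that none was called at the depth reached. Expression of cell type markers was not measured in these samples, so the labelled cell type rests on the sort.

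Integrins are adhesion receptors made of an alpha and a beta chain, and both chains are needed for the receptor to reach the cell surface. The Itgb2 chain (CD18) pairs with Itgal to form LFA-1, with Itgam (CD11b) to form the complement receptor Mac-1, with Itgax (CD11c) and with Itgad (CD11d). The Itga4 chain pairs with Itgb1 to form VLA-4 or with Itgb7 to form a gut homing receptor, and Itgae (CD103) pairs with Itgb7. CD11c and CD11b are the surface markers by which splenic DC and their CD11b+ subset are commonly sorted, and the cells studied here were themselves enriched and gated on CD11c. RUNX factors bind DNA with their partner Cbfb, and TGTGGT is the core of their recognition sequence.

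The mm9 sequences around the centres of the highest-scoring peaks of 7 genes are shown first. Except at Itga4, these peaks were centred more than 1 kb from any TSS of the gene itself. That of Itgb7 was centred 19 bp from the TSS of Rarg. Each is 150 bases of the plus strand, taken as close to the peak centre as possible without UTRs or first exons. Capitals mark TGTGGT or its reverse complement ACCACA. In the peaks of Itgax and Itgb7, which hold no TGTGGT, capitals mark the ETS-type sequence GAGGAA or its complement TTCCTC. The stretch shown for Itgb7 also holds TGCGGT, a sequence related to the RUNX hexamer, which is left in lower case. The peak of Itgax does not hold TGCGGT. Itgam and Itgax share their highest-scoring peak, and Itgb1 has no peak.
Itgad, intron 6, chr7:135323706-135323855: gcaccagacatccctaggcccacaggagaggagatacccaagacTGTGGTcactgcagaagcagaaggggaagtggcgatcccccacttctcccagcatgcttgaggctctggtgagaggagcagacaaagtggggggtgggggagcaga
Itgb2, upstream, chr10:76985042-76985191: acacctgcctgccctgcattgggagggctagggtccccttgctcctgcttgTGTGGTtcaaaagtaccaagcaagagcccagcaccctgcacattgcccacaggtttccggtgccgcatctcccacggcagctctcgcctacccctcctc
Itga4, promoter, chr2:79095392-79095541: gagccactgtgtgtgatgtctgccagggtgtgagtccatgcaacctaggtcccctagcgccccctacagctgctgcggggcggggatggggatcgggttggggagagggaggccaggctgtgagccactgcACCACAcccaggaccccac
Itgae, upstream, chr11:72897948-72898097: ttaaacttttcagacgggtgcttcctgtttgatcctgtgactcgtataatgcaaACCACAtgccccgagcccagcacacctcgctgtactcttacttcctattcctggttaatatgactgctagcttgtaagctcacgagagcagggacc
Itgax and Itgam, exon 8 of Itgax, chr7:135277231-135277380: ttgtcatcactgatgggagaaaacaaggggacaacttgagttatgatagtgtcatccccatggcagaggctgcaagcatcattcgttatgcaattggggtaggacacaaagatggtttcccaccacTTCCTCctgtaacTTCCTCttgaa
Itgb7, upstream at Rarg, chr15:102074021-102074170: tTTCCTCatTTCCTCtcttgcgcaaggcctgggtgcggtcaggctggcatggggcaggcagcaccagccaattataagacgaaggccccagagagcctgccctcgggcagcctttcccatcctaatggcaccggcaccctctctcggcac

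Of the 9 integrin genes, 8 had at least 1 Runx3 peak by this rule, and Itgb1 had none. Under the same rule 50.4% of the 22367 protein-coding genes of the annotation had a peak. A peak in the upper quartile of the list by score, with a lower bound of 23.2, was found at 7 of the 9 genes, against 20.2% of protein-coding genes. Itgae was the gene that had only weaker peaks. A peak centre lay inside the gene body for 7 genes, against 23.2% of protein-coding genes, and at most 1 kb from one of the gene's TSS for 5 genes, Itgam, Itgax, Itga4, Itgb2 and Itgb7, against 24.9%. The integrin genes are longer than most, with a median window of 87.5 kb with both flanks against 55.4 kb. The share of protein-coding genes with a peak was 37.7% for windows under 50 kb, 59% for 50 to 75 kb, 60.9% for 75 to 100 kb and 60.4% for 100 to 150 kb. The windows of the 9 genes ran from 55.9 to 118 kb. These shares are descriptions, and no test of the list was made. Of the integrin genes 7 had 2 or more peaks, against 27.5% of protein-coding genes, 6 had 3 or more, against 14%, and 5 had 4 or more, against 6.77%. Because the windows of neighbouring genes overlap, the 28 peaks gave 32 pairs of a gene and a peak, and 4 peaks were counted for both Itgam and Itgax.

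**Figure D1:**
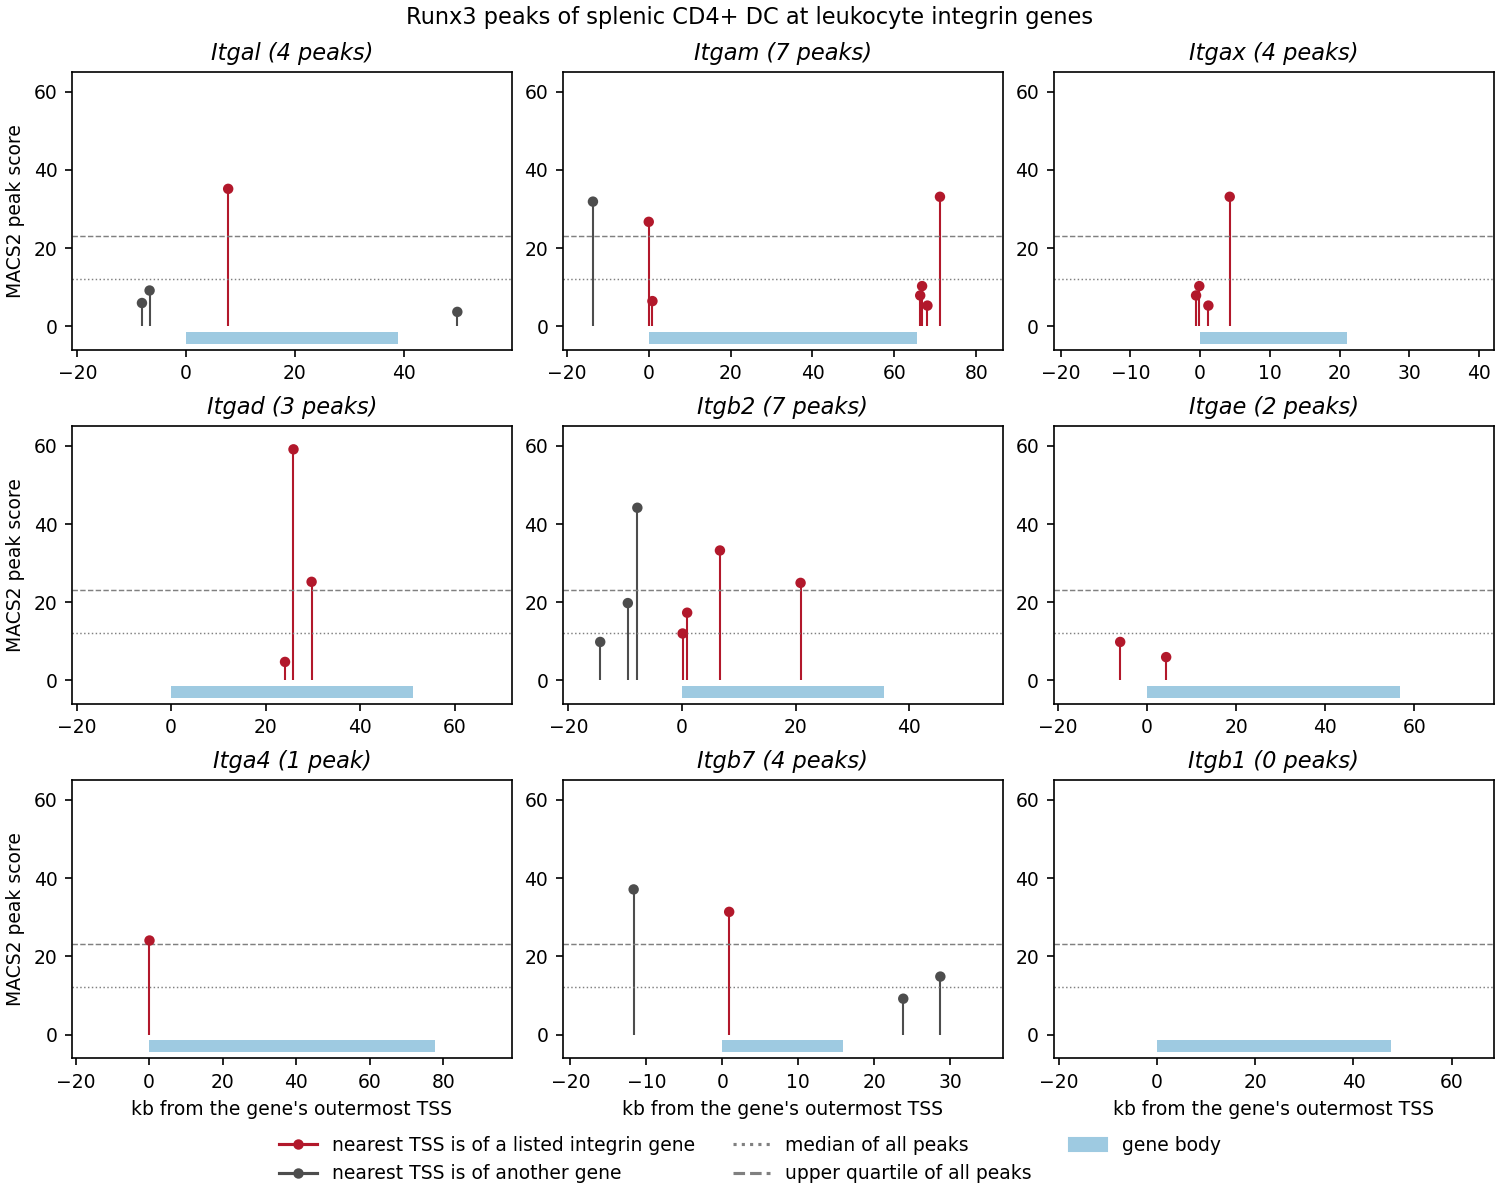
Runx3 peaks at each of the 9 integrin genes, plotted as the MACS2 score against the distance of the peak centre from the outermost TSS in kb, in the direction of transcription. Itgam and Itgb2 have 7 peaks each and Itgb1 has none, and peaks whose nearest TSS belongs to none of the 9 genes are drawn in grey. The distance axis is scaled to each gene, and dotted and dashed lines mark the median and the upper quartile of all peaks.

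The Itgb2 gene (ENSMUSG00000000290.7, chromosome 10, 76992997 to 77028453, plus strand) encodes the chain shared by LFA-1, Mac-1 and the CD11c and CD11d receptors. It had 7 peaks, 4 of them centred inside the gene and 3 upstream. Upstream, in order toward the gene, the peaks scored 9.84, 19.8 and 44.2. At the TSS a peak from 76992835 to 76993325 scored 12, with its centre 12 bp from a TSS. Inside the gene, 2 peaks in intron 1 scored 17.3 and 33.2 and a peak in intron 8, 20851 bp into the longest transcript, scored 24.95. Thus the peak over the TSS scored just below the median of all peaks, 12.1, whereas 3 peaks away from it were in the upper quartile. The strongest, from 76984791 to 76985443, is centred 7880 bp upstream of Itgb2 and 6559 bp upstream of the TSS of the neighbouring gene 1810008A18Rik, so it lay between the starts of both genes. Of the 4820 protein-coding genes with a window within 20% of that of Itgb2, 31 held 7 or more peaks (0.643%), and their median was 1. In all protein-coding genes the share with 7 or more peaks was 0.934%. This count for Itgb2 includes the 3 upstream peaks, all with the TSS of 1810008A18Rik as their nearest. The weakest of these 3 was centred 24 bp from that TSS.

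The Itgal gene (ENSMUSG00000030830.11, chromosome 7, 134439774 to 134478651, plus strand) encodes CD11a, which binds ICAM proteins on partner cells as part of LFA-1. It had 4 peaks, with scores of 5.96 and 9.16 upstream, 35.2 in intron 7 and 3.69 downstream. Only the intronic peak, from 134447265 to 134447720, had its nearest TSS in Itgal, and it was the only Itgal peak above the list median. No Itgal peak lay within 1 kb of any of the gene's TSS, and the closest peak centre was 5539 bp away. The intronic peak holds TGTGGT 2 times. The upstream peaks lie nearest to the TSS of Gm17511, 1636 and 3038 bp from it, and the downstream peak 711 bp from that of Zfp768.

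The genes of Itgam, Itgax and Itgad follow each other on the plus strand of chromosome 7, 727 kb from Itgal. Itgam (ENSMUSG00000030786.11, 135206154 to 135271674) ends 1386 bp before Itgax (ENSMUSG00000030789.7, 135273061 to 135294171), and Itgax ends 3718 bp before Itgad (ENSMUSG00000070369.5, 135297890 to 135349015). The windows of these genes held 10 peaks, 5 with a score of 23.2 or higher, in groups around the start of Itgam, the start of Itgax and the middle of Itgad. A stretch of 65063 bp without a peak, most of the body of Itgam, separated the first 2 groups, and one of 44301 bp separated the Itgax peaks from those of Itgad.

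**Figure D2:**
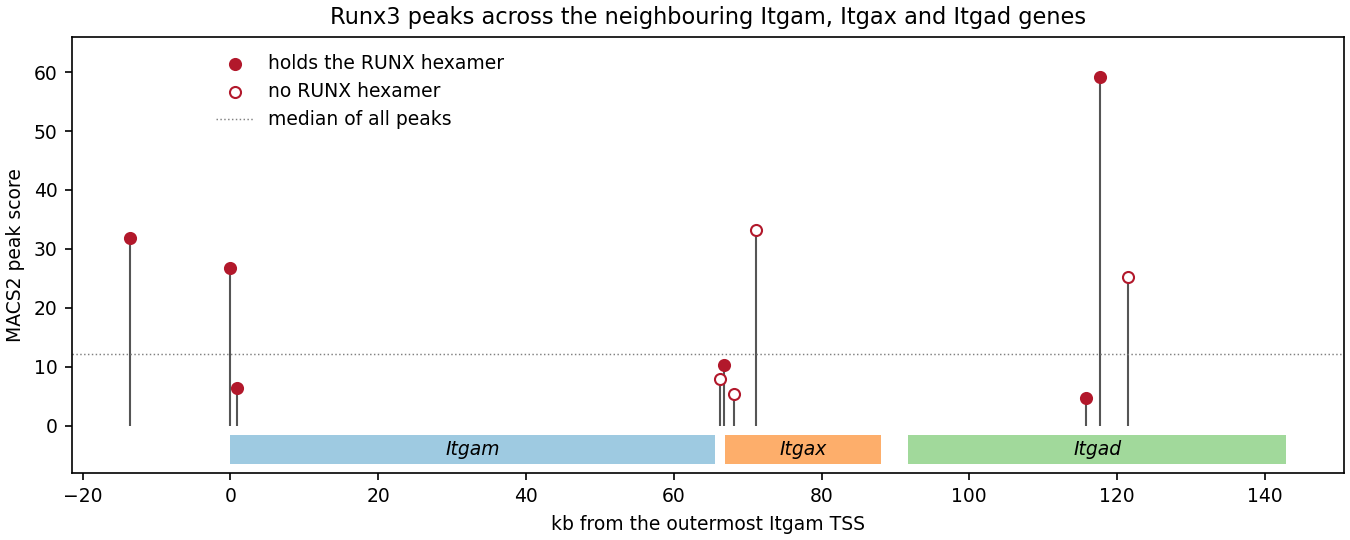
Runx3 peaks across Itgam, Itgax and Itgad, plotted as the MACS2 score against the distance of the peak centre from the outermost Itgam TSS in kb. Filled points hold the RUNX hexamer and open points do not. The peak with a score of 59.1 in Itgad stands highest, and the body of Itgam is empty beyond its first kb.

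Itgam, which encodes CD11b, had 7 peaks in its window, of which only 2 had their nearest TSS in Itgam. A peak from 135205914 to 135206391 over the TSS scored 26.7, and one in intron 1 scored 6.45. A further peak from 135192250 to 135192783, 13637 bp upstream, scored 31.9 and had the TSS of a U1 snRNA gene as its nearest, at 12857 bp. The other 4 peaks lay past the end of Itgam at the start of Itgax. Of the 2565 protein-coding genes with a window of like length, 32 had 7 or more peaks (1.25%). This count for Itgam includes the 4 peaks nearest to Itgax.

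Itgax, which encodes CD11c, had 4 peaks, all with Itgax as the gene of the nearest TSS. In the direction of transcription they scored 7.89, 10.3, 5.30 and 33.1. The weaker 3 lay at most 1164 bp from an Itgax TSS, and each was below the list median. The strongest, from 135277076 to 135277535, is centred in coding exon 8, 4245 bp from the TSS of the longest transcript, and its score was at the percentile 84.9 of the list. The same peak lay 20584 bp from Itgad, just outside the limit of 20 kb for that gene. Of genes with a window of like length, 6.57% had 4 or more peaks.

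Itgad, which encodes CD11d, had 3 peaks, all of them inside the gene. In intron 6 the peaks from 135321837 to 135322139 and from 135323484 to 135324078 scored 4.73 and 59.1, and a peak in intron 8 scored 25.2. The score of 59.1 is the highest of the 28 peaks, with rank 699 in the list (percentile 95.3). No peak lay within 1 kb of an Itgad TSS, and the strongest peak is centred 25891 bp from the TSS of the longest transcript and 6312 bp from the TSS of a shorter one. Of genes with a window of like length, 16.8% had 3 or more peaks.

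Itga4 (ENSMUSG00000027009.11, chromosome 2, 79095583 to 79173280, plus strand) encodes CD49d, the alpha chain of VLA-4. It had a single peak, from 79095140 to 79095793, over its promoter. The centre lay 116 bp upstream of the TSS, and with a score of 24.1 and a width of 654 bp the peak was in the upper quartile by score. Of genes with a window of like length, 61.3% had 1 or more peaks. The body of Itga4, 77.7 kb long, held no peak centre. Itgb1 (ENSMUSG00000025809.8, chromosome 8, 131209554 to 131257100, plus strand), whose product pairs with Itga4 and with many other alpha chains, had no peak, and the nearest peak centre lay 134064 bp from the gene. Of the 3566 protein-coding genes with a window of like length, 61.1% had at least 1 peak.

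Itgae (ENSMUSG00000005947.5, chromosome 11, 72904085 to 72960948, plus strand) encodes CD103, a marker of other DC subsets than the one sorted here. Its peaks, 6062 bp upstream and in intron 1 at 4266 bp from the TSS, scored 9.84 and 5.96, both below the list median, and 32.3% of genes with a window of like length had 2 or more peaks. Itgb7 (ENSMUSG00000001281.3, chromosome 15, 102046426 to 102062366, minus strand) encodes the chain that pairs with Itgae and Itga4. It had 4 peaks in its window, of which 1 had its nearest TSS in Itgb7. This peak, from 102061217 to 102061703 in intron 1, is centred 906 bp from the TSS and scored 31.4. The other peaks of the window scored 37.1 at the TSS of Rarg, and 14.8 and 9.16 at TSS of Zfp740. The share of peaks in the upper quartile was 42.9% both at Itgb2 with its alpha chains (9 of 21 peaks) and at the other genes (3 of 7 peaks).

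The limit of 20 kb brought in peaks of neighbouring genes. Of the 28 peaks, 18 had their nearest TSS in one of the 9 integrin genes and 10 in another gene. The peaks nearest to an integrin TSS scored 4.73 to 59.1 with a median of 20.7, and 9 of them were in the upper quartile. The others scored 3.69 to 44.2 with a median of 12.3, and 3 were in the upper quartile, so both ranges overlap widely. Within 1 kb of a TSS of another gene lay 5 peaks, at 1810008A18Rik, Zfp768, Zfp740 and Rarg. Their GC content ran from 51.3% to 70.3% with a median of 61.9%, and 2 of them held TGTGGT. The 8 peaks within 1 kb of an integrin TSS had a median GC content of 52%, from 41.4% to 59.5%, and 7 of them held it. Of all peaks of the list within 1 kb of a TSS 34.4% held it, and their median GC content was 59.7%. No member peak lay between 15 and 20 kb from its gene, where the farthest was 14415 bp away. Just outside the limit, a peak 22779 bp from Itgb7 scored 9.84 and lies nearest to Csad.

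By score the integrin peaks spread over much of the range of the list. They scored 3.69 to 59.1 with a median of 16.1, against 1.33 to 309 with a median of 12.1 for all peaks, and 12 of the 28 (42.9%) were in the upper quartile, which holds 25.4% of all peaks. The 13 peaks within 1 kb of any TSS had a median score of 12, with 4 in the upper quartile. The 15 peaks farther away had a median score of 24.9, with 8 in the upper quartile, and the ranges of 3.69 to 37.1 and 4.73 to 59.1 overlapped. In the whole list 5745 of the 15121 peaks lay within 1 kb of a TSS. Their median score was 12.4, against 12 for those beyond, and 24.5% and 25.9% were in the upper quartile. Widths of the integrin peaks ran from 284 to 662 bp with a median of 433 bp, and wider peaks scored higher (Spearman rho = 0.727 over 28 peaks of the same list, 0.712 over all peaks).

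**Figure D3:**
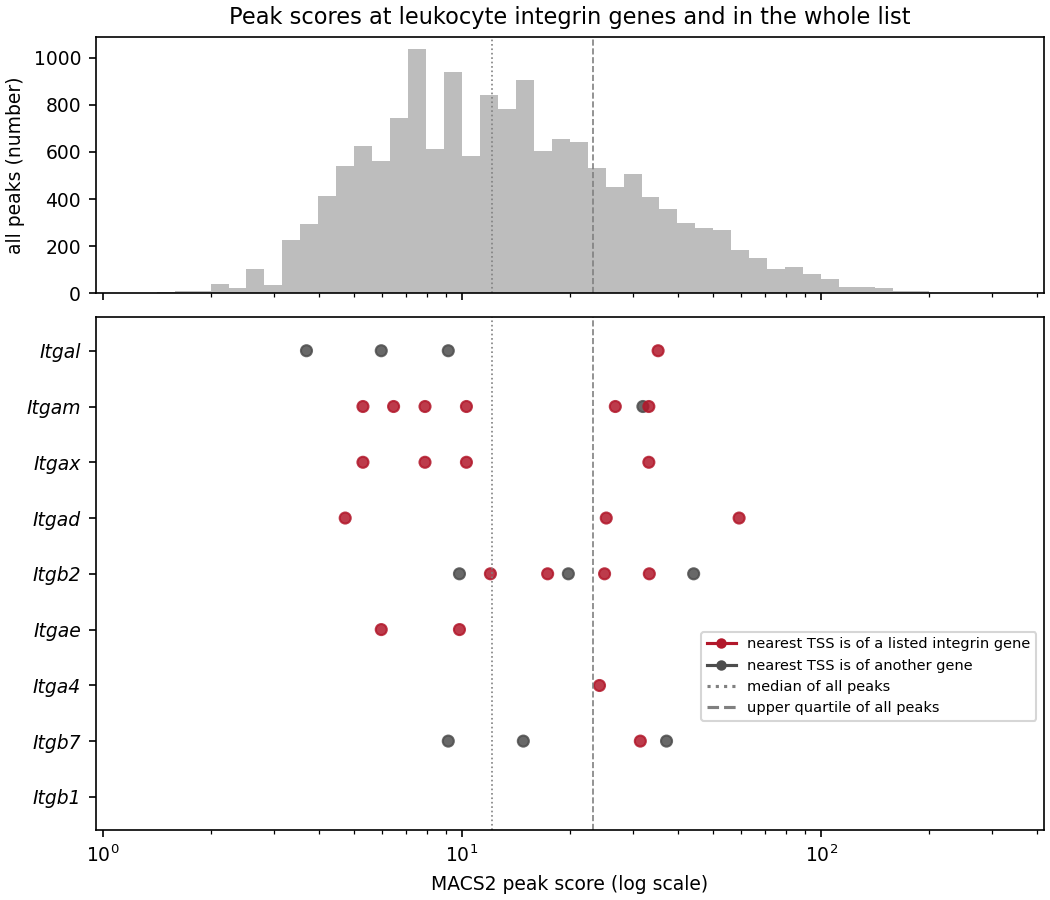
MACS2 scores on a log scale of all 15121 peaks as a histogram (top) and of the peaks at each integrin gene as points (bottom), where a peak counted for 2 genes appears in both rows. Dotted and dashed lines mark the median of 12.1 and the upper quartile of 23.2. Itgb2 has 3 peaks to the right of the upper quartile and Itgae has none.

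The RUNX hexamer TGTGGT, searched on both strands, was present in 19 of the 28 peaks, or 67.9%. The Wilson 95% interval for counting error ran from 49.3% to 82.1% and included the share of 54% in all peaks. Within the 200 bp around the centre 16 peaks held it (57.1%), against 41.8% of all peaks. Of 14881 control windows of 200 bp, placed 10 kb from the centres of all peaks of the list, 16% held it. Peaks with the hexamer scored 4.73 to 59.1 with a median of 17.3, and those without it 3.69 to 37.1 with a median of 9.84, so the ranges overlap. In the strongest peaks of Itgad and Itgb2 the hexamer begins 31 bp and 24 bp before the centre. Of the 9 peaks without it, 4 were in the upper quartile (44.4%), among them the exonic peak of Itgax. Of the 19 peaks with it, 8 were in the upper quartile (42.1%), a similar share. TGCGGT, a related sequence, was in 8 of the integrin peaks (28.6%, Wilson 95% interval 15.3% to 47.1%), against 20.1% of all peaks. When C was also allowed at the first and the third base of TGTGGT, 23 integrin peaks held it (82.1%), against 76.6% of all peaks.

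**Figure D4:**
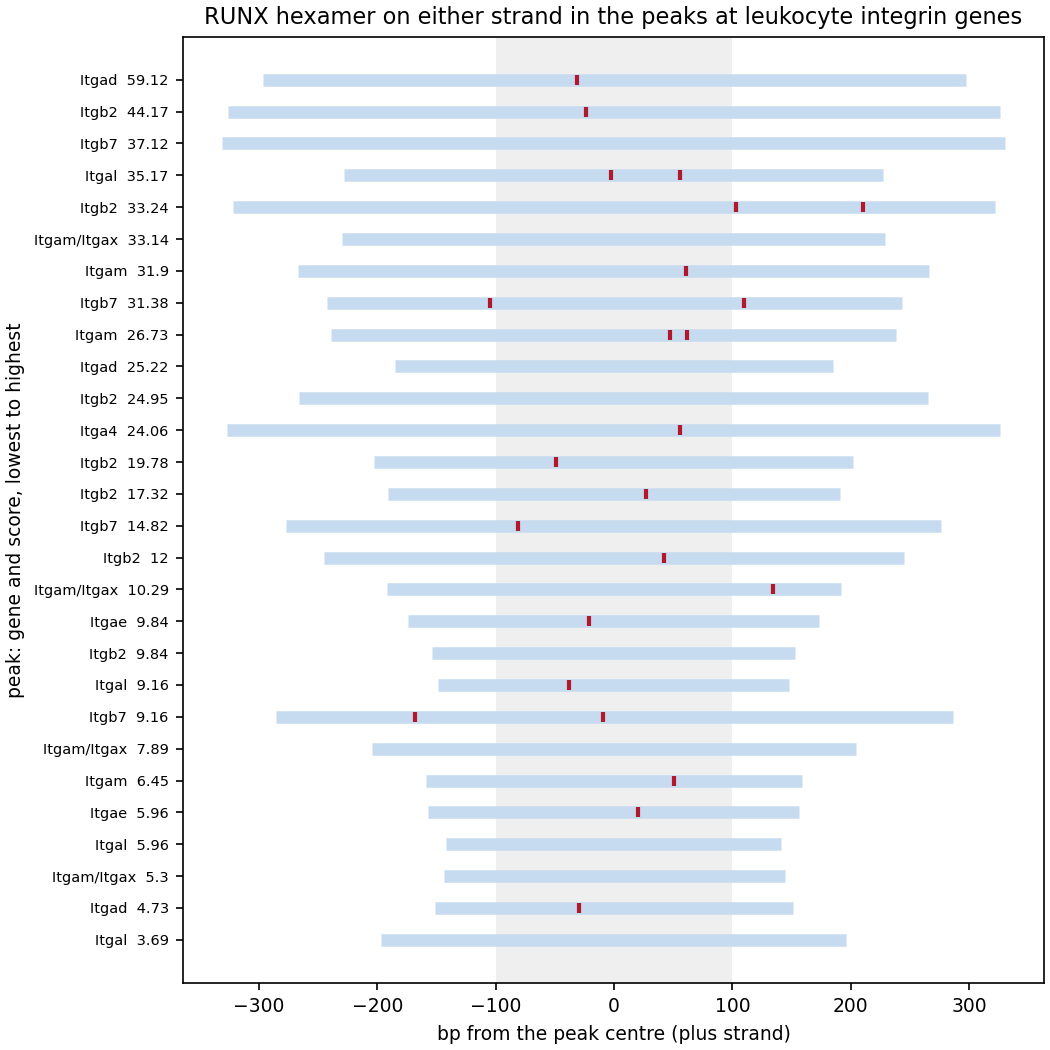
Position of the RUNX hexamer in each of the 28 integrin peaks, in bp from the peak centre, with peaks ordered by score and drawn to their width. Ticks mark the start of the hexamer on the plus strand and the shaded band marks the 200 bp around the centre, in which 16 peaks have the hexamer.

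Several integrin genes had the hexamer close to a TSS. TGTGGT lay within 100 bp of a TSS of a protein-coding transcript in 6 of the 9 genes, Itga4, Itgad, Itgae, Itgam, Itgax and Itgb2, against 15.8% of the 22335 protein-coding genes with such a TSS. The integrin genes have up to 7 such TSS, which raises the chance of a match, and no test was made. In 4 of the genes the hexamer was inside a Runx3 peak, a count for which no share over all genes is given here. In Itgad and Itgae, where it lay 91 and 96 bp from the TSS, no peak covered it. The sites of the promoter peaks are given in at most 30 bases of the plus strand, with TGTGGT or ACCACA in capitals.
Itgam, chr7:135206196-135206224: tgtcTGTGGTgcctgaaatACCACAgttc
Itgax, chr7:135273065-135273094: atttgcttcttcTGTGGTgacttggcagct
Itgb2, chr10:76993110-76993139: tctttagacacaACCACAcagccagctggc
Itga4, chr2:79095511-79095540: gtgagccactgcACCACAcccaggacccca
In Itgam the 2 hexamers face each other on opposite strands and begin 3 and 18 bp past the TSS of the longest transcript. In Itgax the hexamer begins 16 bp past the outermost TSS, in Itgb2 30 bp past one TSS and 7 bp past another, and in Itga4 60 bp before the TSS. All of these sites except that of Itga4 lie downstream of an annotated TSS of their gene.

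Other sequences named in the study or known to bind myeloid factors were searched in the same way. GAGGAA, an ETS-type sequence, was present in 13 of the 28 peaks (46.4%), against 53.6% of all peaks, and 4 times in the peak over the Itgam TSS. TGANTCA, the AP-1-type sequence, was in 6 peaks (21.4%), against 13.2% of all peaks. The peak over the Itgax TSS holds it 2 times, as TGACTCA in cctcctgtggcTGACTCAcacttcaaggtc (chr7:135272778-135272807) and as TGAGTCA in cccacctcctcTGAGTCAcgctgacaactt (chr7:135272997-135273026). TGACGT, a zDC-type hexamer, was in 1 integrin peak, in intron 2 of Itgax, against 11% of all peaks. An IRF-type sequence, GAAA followed after any 2 bases by GAAA, was in 0 of the 28 peaks, which allows a share of up to 10.7%, against 6.48% of all peaks. The Wilson 95% intervals of GAGGAA (29.5% to 64.2%), TGANTCA (10.2% to 39.5%) and TGACGT (0.633% to 17.7%) all included the share in all peaks.

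Genes that work with these integrins were examined by the same rule. Of all protein-coding genes 50.4% had a peak, 20.2% one in the upper quartile and 24.9% one within 1 kb of a TSS. Their median was 1 peak per gene. In the classes of windows from 50 to 150 kb, 59% to 60.9% of genes had a peak. Among the 17 other integrin chain genes, 12 had a peak (70.6%), with a median of 1 peak per gene against 4 for the leukocyte integrins. The windows of these 17 genes had a median length of 123 kb. A score of 23.2 or higher was found for 4 of them, near the share of 20.2% over all protein-coding genes. Itga6, a laminin receptor chain, reached 60.2 in intron 1, and Itgb3, the chain of the platelet fibrinogen receptor, had 7 peaks with a highest score of 46.2. The highest score was 24.9 at the promoter of Itga8 and 24.1 in intron 11 of Itga9. The 13 genes that control integrin activation included 12 with a peak (92.3%), 11 of them with one within 1 kb of a TSS, and 8 reached the upper quartile. Dok1 had none. The highest scores were 41.1 at the promoter of Tln1, the cytoskeletal activator that binds beta chain tails, 42.1 at an internal TSS of Rassf5, an effector of Rap1, 31.6 in intron 1 of Ptk2b, an adhesion kinase, 29.9 upstream of Rap1a and 26.7 in intron 1 of Apbb1ip, the adaptor between Rap1 and talin. Those of Sharpin (60.2), Vcl (36.1) and Itgb1bp1 (24.9) lay nearest to the TSS of Maf1, Ap3m1 and Cpsf3. Fermt3, the kindlin of blood cells, had its strongest peak over the TSS with a score of 14.2. Among the 11 ligand genes 9 had a peak (81.8%), 6 of them in the upper quartile, and Vcam1 and Jam3 had none. Icam2, a ligand of LFA-1, had a promoter peak with a score of 55.8, and Icam1 one of 26.7 in intron 2, which also lies in the windows of Icam4 and Icam5. The highest scores at Madcam1 (38.1) and Fn1 (27.4) lay nearest to the TSS of Cdc34 and Atic.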

How the data were processed

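Runx3 ChIP-seq peaks of 2 Runx3 and 2 whole cell extract samples were analysed. Per the labels, reads of 50 bp from fragments of about 300 bp were processed with CASAVA 1.8, Bowtie and MACS2 on mm9. The authors kept reads that aligned uniquely and deposited 1 peak list for all samples. The peak names show 1 call of both Runx3 samples against both whole cell extract samples. Versions of the aligner and the caller, the threshold and the handling of duplicates are not given in the sources used here. The deposited list holds coordinates and the score that MACS2 wrote for each peak, whose unit the authors do not state, and scores were compared only within the list. Positions are 1-based, and each peak was placed by its centre.

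Genes and TSS came from GENCODE M1 on NCBIM37, the mm9 assembly, from which all sequences were read. Exon and intron numbers refer to the gene's longest coding transcript. All 50 listed genes matched. The sequence of the strongest Itgal peak is not reported here. Windows of like length were those within 20% of the length of the gene's own. The control windows of 200 bp were taken for all peaks of the list. They lay 10 kb from the centre toward higher coordinates, whatever the strand of the gene, and overlapped no peak. No test was made, since peaks have no value per replicate. Wilson 95% intervals were given for shares, and a count of 0 was taken to allow up to 3. Both cover counting error only. The peak assignment and the sequence search were tested on simulated data. The genes and lists were chosen with earlier results of these data known. All 9 integrin genes were named, neighbours where a peak lay nearest to their TSS, and of the other lists the genes with a score in the upper quartile. Fermt3 and the genes without a peak were named after their values were seen, as were the promoter sites and the AP-1-type sites shown. Alternatives concerned the score, the distance, the peak position, joined peaks, the set of TSS and the hexamer. Python 3.11.15, numpy 2.4.6, pandas 2.3.3, scipy 1.17.1, pysam 0.24.0 and matplotlib 3.10.9 were used.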

Additional observations from a re-analysis of the deposited data

How the results depend on the processing

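The number of integrin genes with a peak stayed between 7 and 8 under each of the alternatives run. The count of 28 distinct peaks fell to 15 when peaks below the median score were dropped, to 12 for the upper quartile and to 13 for the gene body alone. It was 23 with 10 kb and 34 with 50 kb on each side. The median of 4 peaks per gene was 1 under the median score, the upper quartile and the gene body alone. The peaks whose nearest TSS was in an integrin gene numbered 18, and 10 or 9 under the same score limits. A promoter peak within 1 kb was kept by 3 genes for peaks in the upper quartile. These counts fall because fewer peaks or shorter windows were used. The share of peaks with TGTGGT was 82.1% with the degenerate hexamer, which also counts other sequences. Of 63 counts of single genes under the alternatives, 41 were within 1.5 times of the reported count and 22 were not. No paired analysis was possible because all samples share 1 peak list, and for the same reason no replicate could be left out. Depth limits how weak a peak could be called, and no value here has an error between replicates.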
